A study of Saccharomyces cerevisiae with 17 samples.

Results

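Nuclear genes of the respiratory chain and ATP synthase were followed through RNA sequencing of 10 strain groups of *Saccharomyces cerevisiae*, budding yeast. The 39 genes were taken from a fixed list of symbols, and all of them were found among the 6644 genes that both deposited tables hold and among the 6241 genes that were tested. They encode 4 subunits of complex II, 11 proteins of complex III and cytochrome c, 9 subunits of complex IV, 12 subunits of ATP synthase and 3 NADH dehydrogenases. The study asked how repositioned nucleosomes affect transcription. It used Chd1-Ume6, an engineered enzyme in which Chd1, a nucleosome-sliding remodeler, is joined to the DNA-binding part of Ume6, a repressor that binds the URS1 element.

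All strains were W303, grown to an OD600 of 0.4 to 0.6, except that the *isw2 rpd3* double deletion was in a prototrophic W303 background. The groups without a fusion were wild type, deletions of *ume6*, *rrp6*, *isw2* and *rpd3*, and the double deletion. Isw2 is a remodeler and Rpd3 a histone deacetylase, both recruited by Ume6, and Rrp6 is the nuclear exosome's exonuclease. The active fusion was carried in wild type, in the *ume6* deletion and in the *rrp6* deletion, and a catalytically dead form, marked inactive in the plots, was carried in the *ume6* deletion. The labels describe 17 libraries, and the tables hold 15 columns, 8 in a first table and 7 in a workbook. Wild type with Chd1-Ume6, the plain *ume6* deletion and *ume6* with Chd1-Ume6 have 1 column in each table. The *rrp6* deletion without and with Chd1-Ume6 has libraries 1 and 2, both in the workbook. Wild type, *isw2*, *rpd3*, the double deletion and the dead fusion have 1 column each, all in the first table. Each pair of values below gives the first table before the workbook, or library 1 before library 2.

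The respiratory chain passes electrons from NADH and succinate through ubiquinone, complex III, cytochrome c and complex IV to oxygen, and ATP synthase uses the resulting proton gradient. Budding yeast has no proton-pumping complex I and oxidizes NADH with single-subunit enzymes, Ndi1 inside and Nde1 and Nde2 outside the inner mitochondrial membrane. The nuclear genes are repressed by glucose and activated by the Hap2/3/4/5 complex, which binds the sequence CCAAT, while the hypoxic isoform genes *COX5B* and *CYC7* are repressed when oxygen is present.

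Upstream sequence is shown for 5 genes that carry the main differences or a URS1 core. Windows hold 250 bases before and 50 bases from the annotated start, which is an ATG in 38 of the 39 genes, and come from the RefSeq R64 reference by gene name. That reference is strain S288C, not W303, and the build behind the deposited values is not given in the sources used here. *ATP20* (chrXVI:599620-599919, plus strand) and *ATP15* (chrXVI:29829-30128, plus strand) were the genes of ATP synthase with the largest differences in *ume6*. *NDE1* (chrXIII:556426-556725, minus strand) was called in both *rrp6* comparisons, *CYC1* (chrX:526085-526384, plus strand) was lower in the double deletion than in any other column, and *SDH2* (chrXII:53882-54181, minus strand) holds both motifs within a few bases. Capitals mark GGCGGC, the core of URS1, and CCAAT, each with its reverse complement.
ATP20: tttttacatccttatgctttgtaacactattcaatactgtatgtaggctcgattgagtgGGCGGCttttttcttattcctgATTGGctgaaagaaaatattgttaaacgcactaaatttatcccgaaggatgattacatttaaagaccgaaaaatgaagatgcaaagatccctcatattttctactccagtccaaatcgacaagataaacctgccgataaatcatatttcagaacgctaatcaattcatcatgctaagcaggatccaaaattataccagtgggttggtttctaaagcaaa
ATP15: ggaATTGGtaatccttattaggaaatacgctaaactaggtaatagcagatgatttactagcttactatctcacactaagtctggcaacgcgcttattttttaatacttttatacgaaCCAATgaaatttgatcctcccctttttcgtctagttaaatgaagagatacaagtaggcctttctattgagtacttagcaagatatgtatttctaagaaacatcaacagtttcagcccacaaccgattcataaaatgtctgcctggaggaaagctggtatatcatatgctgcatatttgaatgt
SDH2: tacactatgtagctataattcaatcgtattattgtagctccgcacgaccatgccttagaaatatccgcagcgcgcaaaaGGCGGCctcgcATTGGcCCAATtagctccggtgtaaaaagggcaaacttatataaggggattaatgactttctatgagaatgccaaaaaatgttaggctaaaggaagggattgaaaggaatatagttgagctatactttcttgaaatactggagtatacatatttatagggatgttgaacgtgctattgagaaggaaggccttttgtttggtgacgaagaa
NDE1: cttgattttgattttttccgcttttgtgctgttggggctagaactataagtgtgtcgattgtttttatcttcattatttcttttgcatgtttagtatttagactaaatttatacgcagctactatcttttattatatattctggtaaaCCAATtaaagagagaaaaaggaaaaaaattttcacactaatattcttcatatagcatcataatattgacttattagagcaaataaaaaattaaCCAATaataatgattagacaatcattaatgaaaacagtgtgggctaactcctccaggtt
CYC1: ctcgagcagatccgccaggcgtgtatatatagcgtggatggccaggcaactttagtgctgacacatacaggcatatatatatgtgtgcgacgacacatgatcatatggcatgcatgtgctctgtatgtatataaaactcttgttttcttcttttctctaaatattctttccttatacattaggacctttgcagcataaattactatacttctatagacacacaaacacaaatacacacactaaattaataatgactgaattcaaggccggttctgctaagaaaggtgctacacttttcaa
On either strand, CCAAT was present in 32 of the 39 windows (82.1%) and in 43.3% of 5955 windows of the same length over all genes. It was not in the windows of *COX4*, *COR1*, *CYT1*, *CYC1*, *CYC7*, *ATP1* and *NDE2*. GGCGGC was present in 4 of the 39, those of *ATP20*, *SDH1*, *SDH2* and *COX5A*, and in 5.1% of all windows. The authors' motif column, whose motif is not named in its header, has a yes for *ATP20* and *RIP1* among the 39, and the *RIP1* window holds no GGCGGC. The 2 motifs do not share bases, and a match describes letters only.

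The 39 genes as a group had a median of 232 FPKM in wild type, 228 in *isw2*, 196 in *rpd3* and 144 in the double deletion. It was 301 and 292 in *ume6*, 326 and 382 in *ume6* with Chd1-Ume6 and 185 with the dead fusion. It was 208 and 240.0 in wild type with Chd1-Ume6, 149 and 142 in *rrp6*, and 209 and 305 in *rrp6* with Chd1-Ume6. The double deletion and *rrp6* held the 3 lowest medians and *ume6* with Chd1-Ume6 the 2 highest. Every one of the 39 genes had a value in all 15 columns, the lowest being 4.41 FPKM (fragments scaled by transcript length and library size). In wild type the ATP synthase genes were highest at *ATP2*, the catalytic beta subunit, with 633 FPKM, and *ATP1*, the alpha subunit, with 630.4 FPKM. The others of that enzyme ran from 138 FPKM for *ATP20*, subunit g, to 371 for *ATP17*, subunit f. Complex II was lower, from 93.5 FPKM for *SDH2*, the iron-sulfur subunit, to 152 for *SDH3*, a membrane anchor. The median over complex II was 111 FPKM, over complex III and cytochrome c 197, over complex IV 286 and over ATP synthase 252. *NDE1* was the highest of all 39 at 978.5 FPKM, while its paralog *NDE2* was at 7.91 and *NDI1* at 33.6. Depth is unknown because no counts were used here, and the FPKM of a column summed to between 889087 and 1216140. In RNA from a whole culture, fewer cells that express a gene and less RNA per cell cannot be told apart.

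**Figure D1:**
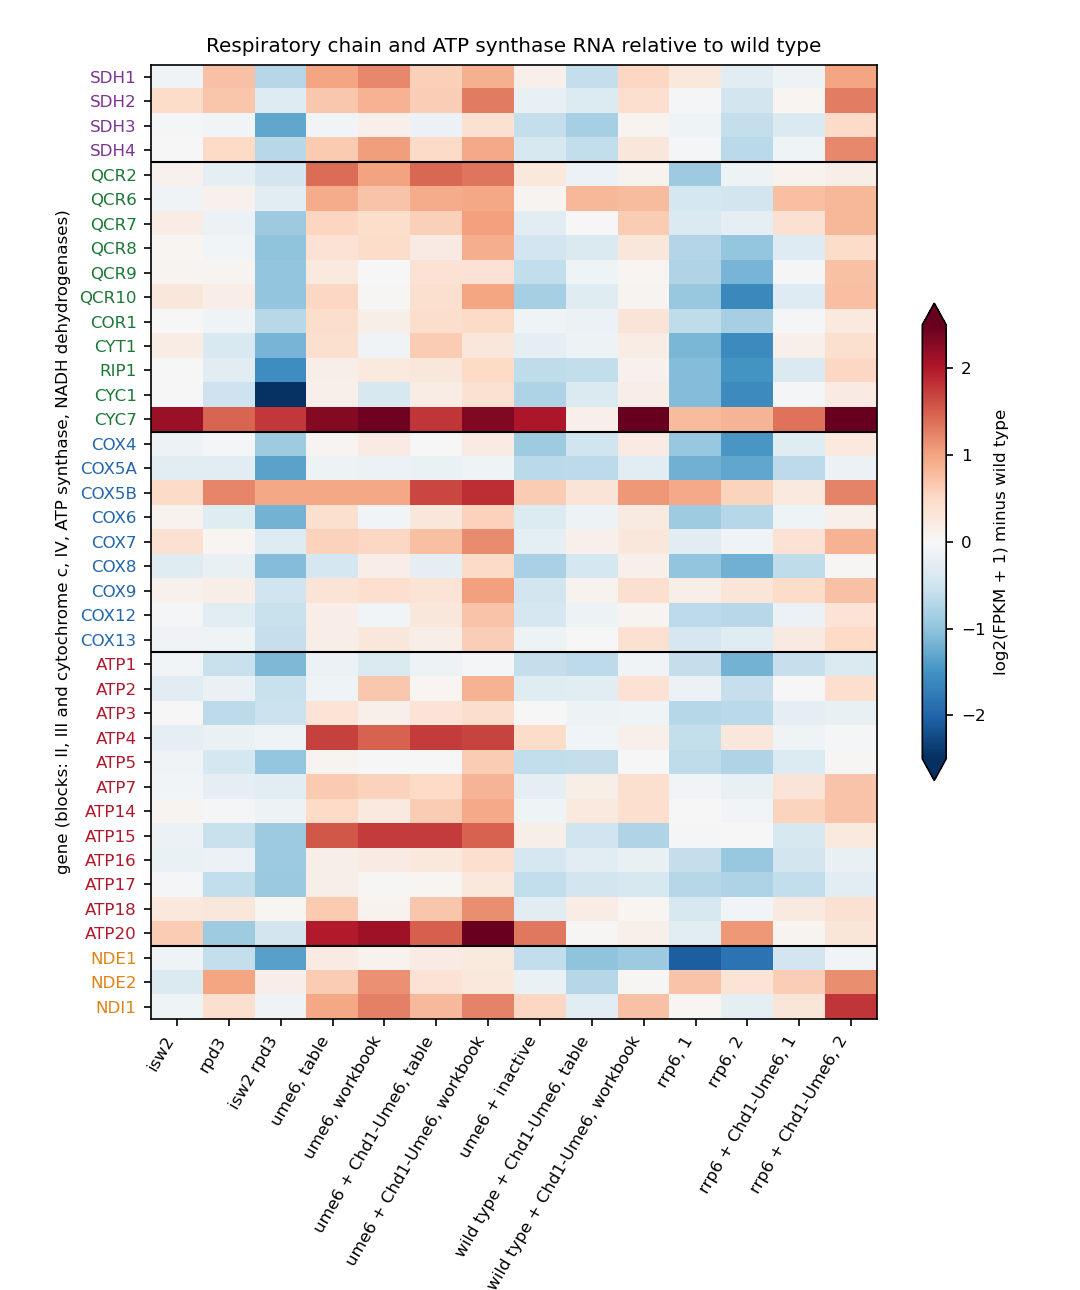
Difference in log2(FPKM + 1) from the wild type column for the 39 genes (rows, grouped by complex) in the other 14 columns, with no adjustment between tables and colours saturating past 2.5 in either direction. *CYC7* is above wild type in all 14 columns, *ATP4*, *ATP15*, *ATP20* and *QCR2* are highest in the *ume6* columns with and without the active fusion, and most genes are below wild type in the double deletion and in both *rrp6* columns.

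In columns of a deletion without a fusion the deleted gene was at most 1.69 FPKM where a value is given. *CHD1* rose in every comparison that adds a fusion, but to unequal levels. It was at 1608 FPKM with the dead fusion and at 836 and 1075 with the active fusion in *ume6*. With the active fusion it was at 505 and 449 in wild type and at 288 and 276 in *rrp6*. The part of these levels in comparisons between fusion strains was not tested. Replicate columns of wild type with Chd1-Ume6 were the least alike (r = 0.945, 632 genes at least 2-fold apart) and those of *ume6* the most alike (r = 0.974, 203 genes). Several columns differed from wild type over whole chromosomes. Among 5740 tested genes with a RefSeq chromosome, the chromosome XVI median was 0.89 and 0.88 above the other chromosomes (log2) in *ume6*, 0.95 and 0.93 in *ume6* with Chd1-Ume6, 0.60 with the dead fusion and 0.98 in *rrp6* library 2. Chromosome IX was 1.00 and 1.01 higher in *ume6* with Chd1-Ume6, and chromosome III 0.98 higher in the workbook column of *ume6*. The remaining 215 of 224 medians lay between -0.21 and 0.22, and both arms were raised in each case, by 0.60 to 1.21. Of the 39 genes, *QCR2*, *ATP4*, *ATP15* and *ATP20* lie on XVI, *COX5B* lies on IX and 0 lie on III. DNA content was not measured in these samples.

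**Figure D2:**
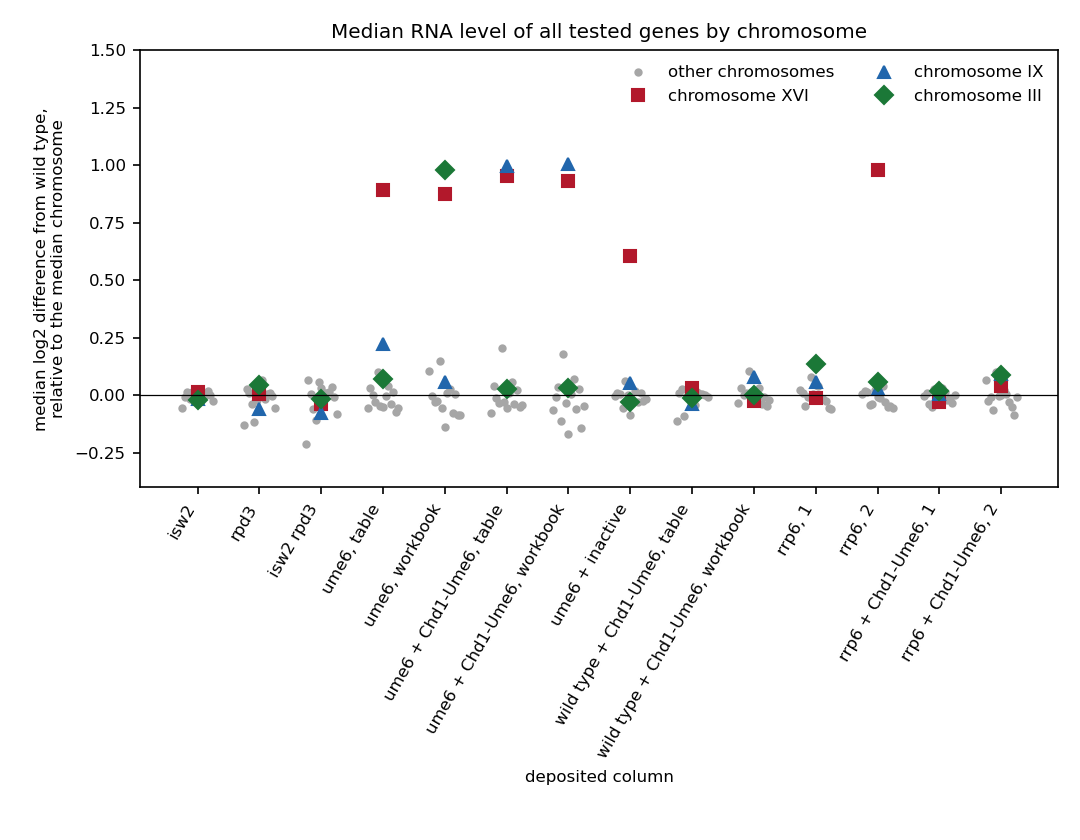
Median log2 difference from wild type over the tested genes of each chromosome (points), relative to the median chromosome of that column. Chromosome XVI stands at 0.60 to 0.98 in 6 columns, IX at about 1.00 in both columns of *ume6* with Chd1-Ume6 and III at 0.98 in the workbook column of *ume6*, while the other medians lie between -0.21 and 0.22.

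Loss of Ume6 was compared with wild type to see which genes the repressor affects. *ATP15*, the epsilon subunit of ATP synthase, was at 271 FPKM in wild type against 801 and 906 in *ume6*. *ATP20* was at 138 FPKM in wild type against 551 and 606. *ATP4*, subunit b of the stator stalk, was at 219 against 724 and 613, and *QCR2*, a core subunit of complex III, was at 197 against 519.8 and 399. All 4 were above wild type in both columns, and all 4 lie on chromosome XVI. *ATP15* rose 3.27-fold (1.71 ± 0.33 SE on the log2 scale, adjusted p = 0.0386, limma, n = 2 against 1) and was the only 1 of the 39 to pass an adjusted p of 0.05, against 2.13% of all genes. *ATP4* (1.62 ± 0.37, adjusted p = 0.063), *ATP20* (1.85 ± 0.54, adjusted p = 0.114) and *QCR2* (1.25 ± 0.36, adjusted p = 0.114) did not pass. Once each chromosome's median was subtracted in each column, the changes were 0.84 for *ATP15* (adjusted p = 0.356), 0.74 for *ATP4*, 0.98 for *ATP20* and 0.37 for *QCR2*, and 0 of the 39 passed. The *ATP15* call was also lost without any one column of *ume6*, of *ume6* with Chd1-Ume6 or of wild type with Chd1-Ume6 (0 calls), while 4 genes were called without *rrp6* library 1 or library 2.

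The rest of the chain stood closer to wild type in *ume6*. In all, 5 of the 39 were at least 2-fold higher, against 8.56% of all genes, and 4 of those 5 were the genes on XVI, where 180 of 456 tested genes were as far apart. The other was *CYC7*, iso-2-cytochrome c, at 9.65 FPKM in wild type and 51.0 and 56.5 in *ume6* (1.83 ± 0.92, adjusted p = 0.322). The 34 genes on chromosomes other than III, IX and XVI had a median change of 0.18, and the 39 together 0.23, against 0.037 for all genes tested. Without the first-table *ume6* column the median of the 39 was -0.070, so its sign rests on that column. The 3 lowest values were -0.46 for *COX8*, a small subunit of complex IV, -0.32 for *ATP1* and -0.24 for *SDH3*, and 0 of the 39 were called lower. Among the complexes the median was 0.53 for complex II, 0.23 for complex III and cytochrome c, 0.064 for complex IV, 0.29 for ATP synthase and 0.70 for the NADH dehydrogenases. In the same comparison 132 of 136 cytosolic ribosomal protein genes were lower, with a median of -0.91 and 7 called, and 59 of 66 mitochondrial ones were higher, with a median of 0.28. *QCR6*, the acidic subunit of complex III, was at 176 FPKM in wild type and 336 and 288 in *ume6* (0.86 ± 0.24, adjusted p = 0.101).

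**Figure D3:**
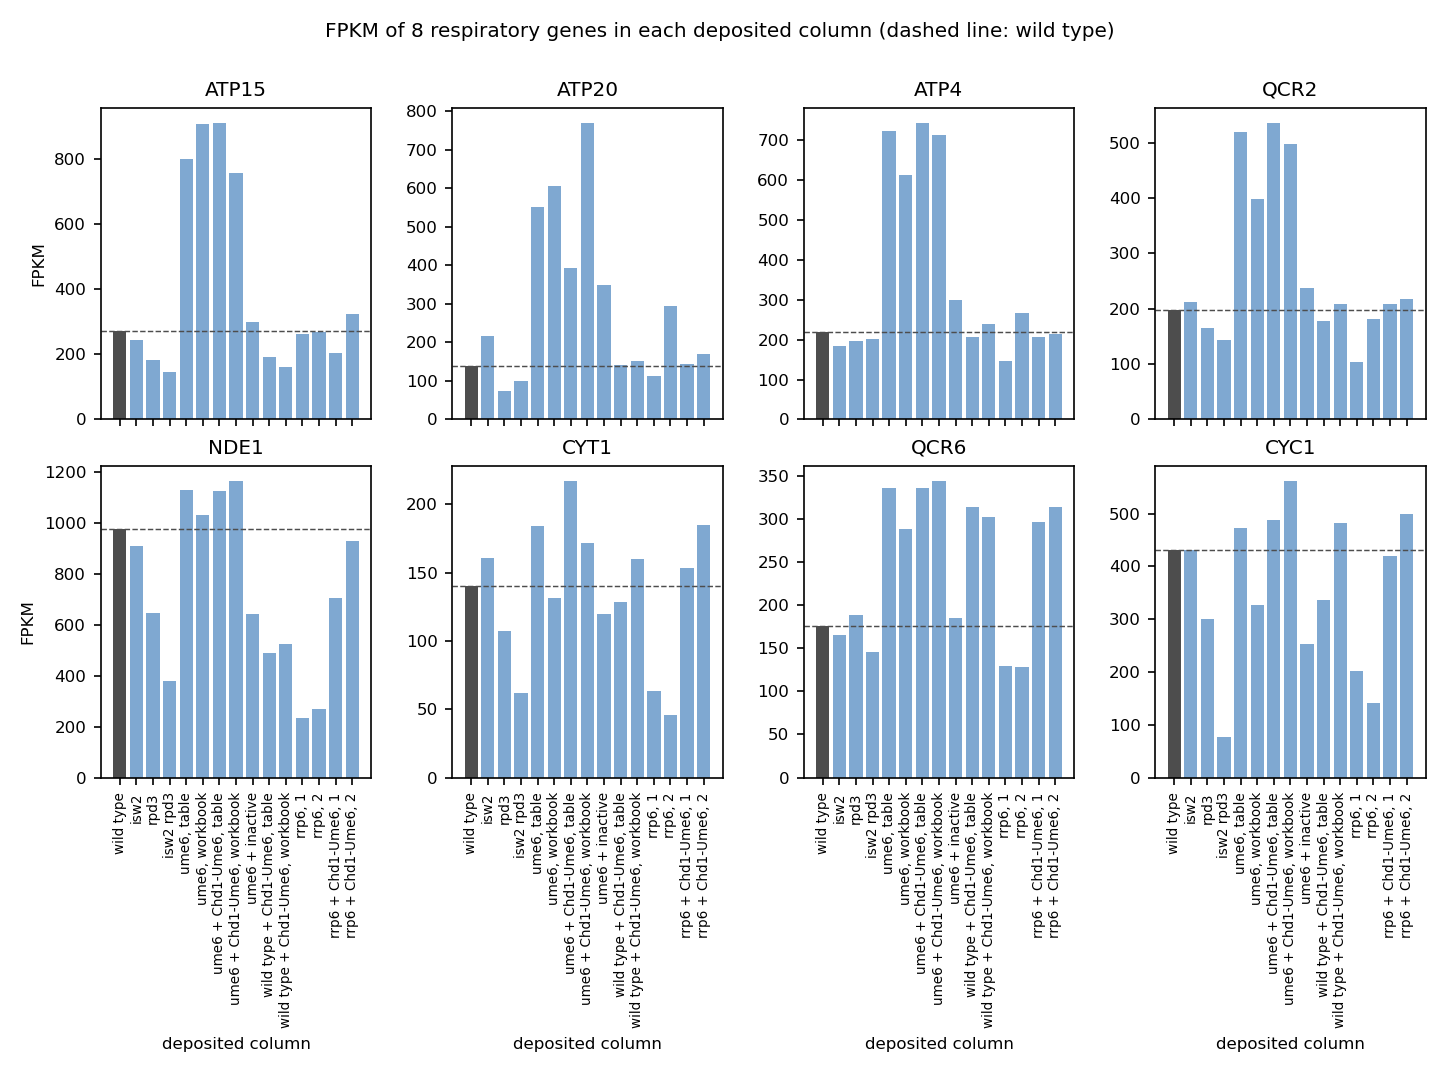
FPKM of 8 genes in each of the 15 columns (bars, from 0), with a dashed line at the wild type column. The upper row holds the 4 genes on chromosome XVI, which are highest in the *ume6* columns with and without the active fusion, and the lower row shows *NDE1*, *CYT1* and *QCR6* low in *rrp6* and higher in *rrp6* with Chd1-Ume6, and *CYC1* at 76.4 FPKM in the double deletion.

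Adding active Chd1-Ume6 to the *ume6* deletion tests what repositioned nucleosomes do where native Ume6 is absent. None of the 39 passed (limma, 0 called), against 0.224% of all genes. Only 1 was at an unadjusted p below 0.05, against 584 of 6241 genes tested. That 1 gene was *COX5B*, the hypoxic form of complex IV subunit 5, at 79.7 and 79.7 FPKM in *ume6* and 130.2 and 147 with the fusion (0.79 ± 0.34, adjusted p = 0.534). *COX5B* was higher in both fusion columns than in both others, and it is the member on chromosome IX, where the median change of 207 genes was 0.94. With chromosome medians subtracted its change was -0.094. The next largest values were 0.55 for *ATP18*, a small membrane subunit of ATP synthase, and 0.46 for *COX12*, a subunit of complex IV. The lowest were -0.58 for *NDE2*, -0.35 for *SDH1*, the flavoprotein of complex II, and -0.31 for *CYC7*. The median was 0.17, against 0.057 for all genes tested, and -0.035 without the workbook column of *ume6*. The 4 genes on XVI stayed between -0.072 and 0.18, and *ATP15* was at 911 and 755 FPKM with the fusion.

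The dead fusion was the control for catalysis. All 39 genes had a lower FPKM with the dead fusion than in either *ume6* column, a count not made over all genes. After the table term 38 of the 39 were lower, against 3328 of 6241 genes tested. The median was -0.60 on the log2 scale, against -0.035 for all genes tested. None passed (limma, 0 called), against 0.0481% of all genes. At an unadjusted p below 0.05 there were 10 of the 39, against 459 of 6241 genes tested. *ATP15* was at 299.9 FPKM with the dead fusion (-1.56 ± 0.33, adjusted p = 0.36), *ATP4* at 301 (-1.16 ± 0.37, adjusted p = 0.606) and *QCR10*, a small subunit of complex III, at 75.5 against 193 and 138 (-1.02 ± 0.52, adjusted p = 0.707). Those 3 were the genes at least 2-fold lower, against 2.88% of all genes, and 2 of them are on XVI, whose own shift was 0.60 with the dead fusion and 0.88 to 0.89 in *ume6*. The 34 genes on chromosomes other than III, IX and XVI had a median of -0.60. Without the first-table *ume6* column the median of the 39 was -0.30. The 3 highest values were 0.18 for *CYC7*, -0.17 for *COX5B* and -0.19 for *COX13*, a subunit of complex IV. In the same comparison 128 of 136 cytosolic ribosomal protein genes were higher, with a median of 0.37.

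Active and dead fusion were then compared directly in the *ume6* deletion, with the same single dead fusion column as above. The active fusion columns were both above the dead fusion column in 38 of the 39 genes, the exception being *CYC7* at 35.9 and 51.8 FPKM against 42.1. This was not counted over all genes, and in the fit 38 of the 39 were higher, against 3591 of 6241 genes tested. The median difference was 0.81, against 0.087 for all genes tested, and it was 0.78 over the 34 genes on chromosomes other than III, IX and XVI. None passed (limma, 0 called), against 0.353% of all genes. At an unadjusted p below 0.05 there were 19 of the 39, against 888 of 6241 genes tested. The largest values were 1.52 for *ATP15* (adjusted p = 0.101), 1.45 for *QCR10* (adjusted p = 0.26) and 1.29 for *ATP4* (adjusted p = 0.175). In all, 7 genes were at least 2-fold higher with the active form, against 5.91% of all genes. The others were *ATP18*, *QCR2*, *COX7*, a small subunit of complex IV, and *CYC1*, iso-1-cytochrome c. Of these genes *ATP15*, *ATP4* and *QCR2* lie on XVI, where the median difference of all 456 tested genes was 0.42. *CYC1* was at 253 FPKM with the dead fusion and 487 and 562 with the active one (1.02 ± 0.38, adjusted p = 0.269). Complex III and cytochrome c had a median of 0.91, complex IV 0.81, ATP synthase 0.74, complex II 0.64 and the NADH dehydrogenases 0.29. The dead fusion is 1 column, so its spread was taken from the other groups. The mitochondrial ribosomal protein genes, 65 of 66 higher with a median of 0.77, and the cytosolic ones, 125 of 136 lower with a median of -0.56, stood on opposite sides.

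Carried beside native Ume6 in wild type, the fusion was compared with wild type alone. None of the 39 passed (limma, 0 called), against 0.016% of all genes. Only 2 were at an unadjusted p below 0.05, against 537 of 6241 genes tested. Those 2 were *QCR6*, at 176 FPKM in wild type and 314 and 303 with the fusion (0.85 ± 0.24, adjusted p = 0.495), and *NDE1*, at 978.5 against 489 and 524 (-0.95 ± 0.27, adjusted p = 0.495). Neither gene's fusion columns overlapped wild type. *CYC7* was at 10.6 and 64.6 FPKM with the fusion, the widest disagreement between columns of the group. The next values were 0.55 for *COX5B*, -0.66 for *SDH3* and -0.56 for *ATP15*. The median was -0.12, against 0.077 for all genes tested, and 0.034 without the first-table column of this group. The workbook column was above the first-table column in 36 of the 39, a count not made over all genes.

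Loss of Rrp6 tests the part played by nuclear RNA decay. The *rrp6* columns stand in the workbook and wild type in the first table, so the term for the table, estimated from the 3 groups with a column in each, stands between them. *NDE1* was at 978.5 FPKM in wild type against 235 and 271 in *rrp6*, less than in any other column. It fell 3.89-fold (log2 change -1.96, SE 0.31, adjusted p = 0.0449, limma, n = 2 against 1) and was the only 1 of the 39 to pass, against 0.433% of all genes. The call was lost under quantile normalization (adjusted p = 0.138), without either *rrp6* library, and without any one of the 6 columns of the 3 groups found in both tables, each of which gave 0 calls.

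The lower levels in *rrp6* extended over most of the chain. In all, 31 of the 39 were below wild type in both libraries before the table term, a count not made over all genes. In the fit 35 of the 39 were lower, against 2332 of 6241 genes tested. Of the 39, 12 were at least 2-fold lower, against 4.47% of all genes. The median was -0.80, against 0.14 for all genes tested, and -0.44 without the term for the table. *COX8* was at 259.5 FPKM in wild type and 129.8 and 112 in *rrp6* (-1.73 ± 0.36, adjusted p = 0.0889). *RIP1*, the Rieske iron-sulfur protein of complex III, was at 265 against 125 and 93.8 (-1.64 ± 0.47, adjusted p = 0.207). *COX4*, a subunit of complex IV, was at 299.9 against 155.5 and 109 (-1.55 ± 0.41, adjusted p = 0.175). *CYT1*, cytochrome c1, was at 140.3 FPKM against 63.3 and 46.0. In these genes both *rrp6* libraries lay well under wild type. The medians were -0.94 for complex III and cytochrome c, -0.84 for complex II, -0.80 for complex IV and -0.48 for ATP synthase. The exceptions were few, the highest values being 0.44 for *COX5B*, 0.14 for *NDE2* and 0.089 for *ATP15*, of which *NDE2* and *ATP15* turned negative under median scaling. The 4 genes on XVI had a median of -0.059 and the 34 off III, IX and XVI a median of -0.84. In *ATP20* the libraries parted, with 114 FPKM in library 1 and 296 in library 2, the column whose chromosome XVI was raised, and all 456 tested genes of XVI had a median of 0.62. Of the other members on XVI, *ATP4* was at 145 and 266 FPKM and *QCR2* at 104 and 181, while *ATP15* was at 263 and 268.

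Chd1-Ume6 was also placed in the *rrp6* deletion, a comparison that uses the same *rrp6* columns as the one with wild type, so values low in those columns enter both. *NDE1* was at 235 and 271 FPKM in *rrp6* and at 705.5 and 932 with the fusion. *CYT1* was at 63.3 and 46.0 against 154 and 185. *QCR6* was at 129.7 and 128 against 297 and 313. In each of the 3 both fusion columns lay above both *rrp6* columns. *NDE1* rose 3.20-fold (1.68 ± 0.21 SE, adjusted p = 0.0233), *CYT1* 3.08-fold (1.62 ± 0.26, adjusted p = 0.0388) and *QCR6* 2.36-fold (1.24 ± 0.18, adjusted p = 0.0351), all by limma with n = 2 against 2. They were the 3 called, with 0 called lower, against 0.705% of all genes. In *QCR6* the level with the fusion also exceeded the 176 FPKM of wild type, while *NDE1* stayed under its 978.5. With a column left out the change ran from 1.48 to 1.88 for *NDE1*, from 1.40 to 1.85 for *CYT1* and from 1.198 to 1.275 for *QCR6*. Under quantile normalization or median centring 1 of the 39 was called. All 3 calls were lost without *rrp6* library 2, without library 2 of *rrp6* with the fusion, or without any one of the 6 columns of the 3 groups found in both tables.

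The rest of the chain was mostly higher as well. An unadjusted limma p below 0.05 was found in 23 of 39, against 913 of 6241 genes tested. In 31 of the 39 the fusion columns were both above both *rrp6* columns, a count not made over all genes. In the fit 37 of the 39 were higher, against 3342 of 6241 genes tested. At least 2-fold higher were 10, against 4.25% of all genes, and the median was 0.76, against 0.031 for all genes tested. Complex III and cytochrome c had 7 of those 10 and a median of 1.31, with *CYC7* at 1.61, *QCR10* at 1.502, *CYC1* at 1.43, *RIP1* at 1.36 and *QCR9* at 1.31. *CYC1* was at 202 and 142 FPKM in *rrp6* and 419.5 and 499 with the fusion (adjusted p = 0.0776). The median was 0.79 for complex IV, 0.67 for complex II and 0.47 for ATP synthase. The lowest values were -0.22 for *ATP20*, -0.046 for *ATP15*, 0.0044 for *COX5B* and 0.091 for *ATP4*. Of these, 3 are on XVI, where the median change of all 456 genes was -0.41, *rrp6* library 2 having the raised chromosome. All 34 genes off III, IX and XVI were higher, with a median of 0.81. Library 2 with the fusion was above library 1 in 39 of the 39, a count not made over all genes, by a median of 0.40. Without library 2 of the fusion strain the median change was 0.47. The median of the mitochondrial ribosomal protein genes was -0.022, and that of the cytosolic ones -0.26.

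The fusion's effect in *ume6* was set against its effect in *rrp6*, which share no columns. The difference between the 2 effects passed in 0 of the 39 (limma), against 0.208% of all genes. It was at an unadjusted p below 0.05 in 8 of the 39, against 737 of 6241 genes tested. It was -1.60 ± 0.30 for *NDE1* (adjusted p = 0.079) and -1.32 ± 0.37 for *CYT1* (adjusted p = 0.182). It was negative in 34 of the 39, against 2942 of 6241 genes tested. The median was -0.56, against 0.028 for all genes tested.

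**Figure D4:**
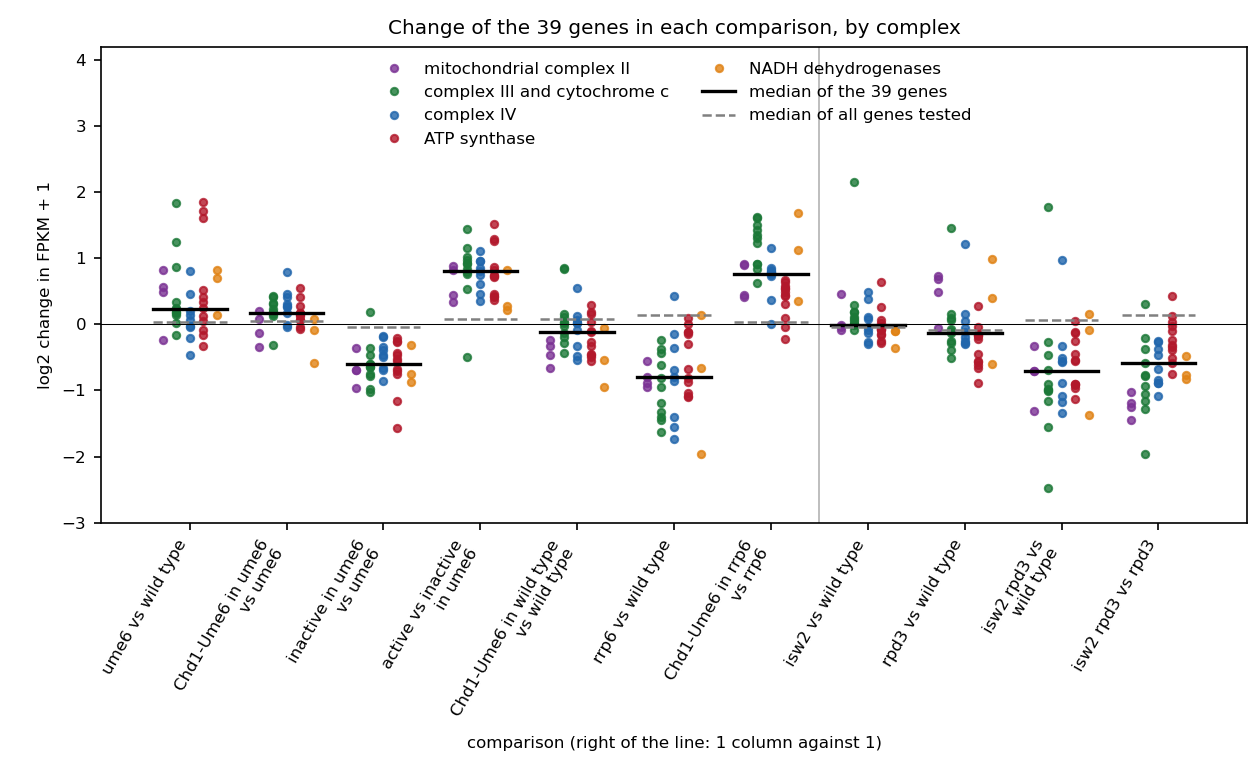
Log2 change in FPKM + 1 of the 39 genes (points, coloured by complex) in each comparison, with their median (solid line) and that of all genes tested (dashed line); comparisons right of the vertical line set 1 column against 1. The median of the 39 is -0.80 in *rrp6* against wild type, 0.76 when Chd1-Ume6 is added to *rrp6*, 0.81 for active against dead fusion and -0.70 in the double deletion.

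The *isw2*, *rpd3* and double deletions are 1 column each against 1 wild type column of the same table, so they have no test. Genes at least 2-fold apart are counted, with folds here and below taken on FPKM + 1, not on the printed FPKM. In *isw2* the chain was close to wild type, with a median of -0.013. *CYC7* was the only 1 at least 2-fold higher, against 0.737% of all genes, at 46.4 FPKM against 9.65 (4.45-fold). *ATP20* was at 216 against 138 and *COX5B* at 56.9 against 40.4, while the lowest were -0.36 for *NDE2*, -0.30 for *COX8* and -0.29 for *ATP2*. In *rpd3* the median was -0.14 and 2 genes were at least 2-fold higher, against 3.81% of all genes. These were *CYC7*, at 28.3 FPKM (2.75-fold), and *COX5B*, at 95.3 against 40.4 (2.33-fold), and *NDE2*, at 16.7 FPKM against 7.91, was at 0.99 on the log2(FPKM + 1) scale, at 1.07 with a pseudocount of 0.1 and at 1.02 under median centring, so the setting decides its side of the limit. In *rpd3* complex II was higher, with a median of 0.59, led by *SDH1* at 174 FPKM against 104, and ATP synthase was lower, with a median of -0.34. The lowest values in *rpd3* were -0.89 for *ATP20*, -0.65 for *ATP3*, the gamma subunit, and -0.62 for *ATP17*.

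The double deletion lay below wild type in 35 of the 39 genes, against 2856 of 6241 genes tested. The median was -0.70, against 0.061 for all genes tested. *CYC1* was at 76.4 FPKM against 431 in wild type, 301 in *rpd3* and 431 in *isw2*, which makes it 5.58-fold lower than wild type and the lowest *CYC1* of the 15 columns. *RIP1* was at 89.6 against 265, and *NDE1* at 379 against 978.5. The 3 genes were also lower than in either single deletion. In all, 10 genes were at least 2-fold lower, against 8.27% of all genes, and 1 was higher, *CYC7* at 35.4 FPKM, against 6.95%. Median centring gave 19 genes past this limit in place of 11. Of the 10, 4 belonged to complex III and cytochrome c, 3 to complex IV and 1 each to complex II, ATP synthase and the NADH dehydrogenases. After *CYC7* the highest were *COX5B*, at 79.9 FPKM (1.96-fold higher), and *NDE2*, at 8.94.

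Against *rpd3*, the double deletion addresses loss of Isw2 when Rpd3 is absent. It was lower in 35 of the 39, against 2402 of 6241 genes tested, with a median of -0.59 against 0.14 for all genes tested. At least 2-fold lower were 9, against 2.53% of all genes, or 14 past the limit under median centring. All 4 genes of complex II were among them, *SDH1* going from 174 FPKM with Isw2 present to 63.3 without it. The largest was *CYC1*, -1.96 on the log2 scale, then *SDH1* at -1.45 and *RIP1* at -1.27, and the highest were 0.43 for *ATP20*, 0.31 for *CYC7* and 0.12 for *ATP3*. Strain background and the *isw2* deletion cannot be told apart here, because only the double deletion was prototrophic.

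Paralog pairs that swap with oxygen or serve the same step were followed in every column. *COX5A*, the aerobic form of complex IV subunit 5, was at 11.7 times the FPKM of *COX5B* in wild type, and at 2.33 to 6.92 times in the other 14 columns. Both sides of the ratio moved, since *COX5A* was at 186 FPKM in the double deletion and 207 and 191 in *rrp6* against 474 in wild type, while *COX5B* was between 48.3 and 147 outside wild type against 40.4 in it. *CYC1* was at 44.7 times the FPKM of *CYC7* in wild type and at 2.16 times in the double deletion. That ratio was 31.8 and 7.47 in the columns of wild type with Chd1-Ume6, a wider gap than between *rpd3* at 10.6 and *isw2* at 9.29. The ratio of *NDE1* to *NDE2* was 124 in wild type and 17.3 and 26.2 in *rrp6*. Every comparison with wild type uses the same single column, in which *CYC7* and *COX5B* are at their lowest, so those values recur and do not bear on each other.

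Complex II, the succinate dehydrogenase, is made of 4 subunits, and the estimates for its genes did not always share a sign. In *ume6* against wild type *SDH1*, *SDH2* and *SDH4* were at 0.82 ± 0.50 SE, 0.49 ± 0.49 and 0.56 ± 0.52 on the log2 scale. *SDH3* was at -0.24 ± 0.42, and at 0.027 with no table term, so its side is uncertain. In *rpd3* against wild type, 1 column against 1, *SDH1* was at 0.73 and *SDH3* near wild type at -0.060. In FPKM, *SDH1* ran from 63.3 FPKM in the double deletion through 104 in wild type to 242 in the workbook column of *ume6*. *SDH2* ran from 68.1 in *rrp6* library 2 to 231 in the workbook column of *ume6* with Chd1-Ume6, with 93.5 in wild type. *SDH3* ran from 60.8 in the double deletion to 213 in *rrp6* with Chd1-Ume6, library 2, with 152 in wild type. *SDH4*, the second anchor subunit, ran from 71.8 in the double deletion to 269 in *rrp6* with Chd1-Ume6, library 2, with 117 in wild type. Wild type thus lay between the extremes for each gene. Replicate columns parted widely here. In wild type with Chd1-Ume6 the median of the 4 genes was 74.6 FPKM in the first table and 145.5 in the workbook, and in *rrp6* with Chd1-Ume6 it was 103 and 220.2 in libraries 1 and 2. In *rrp6* it was 119 and 79.5, and in wild type 111, so 1 of the *rrp6* libraries was above wild type before the table term.

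Among ATP synthase genes the catalytic *ATP2* differed between the tables. It was at 633 FPKM in wild type, 586 and 1016 in *ume6* and 651 and 1152 in *ume6* with Chd1-Ume6, so the workbook was higher in both groups. *ATP1* was at 630.4 FPKM in wild type against 570.2 and 493 in *ume6*, and at 287 in the double deletion and 278 in *rrp6* library 2. The workbook was also the higher table for *ATP2* in wild type with Chd1-Ume6, at 816 FPKM against 528. In *ATP16* and *ATP20* it was likewise the higher table in each of these groups, so this was not particular to *ATP2*. With the table term both genes were slightly below wild type in *ume6*, at -0.32 for *ATP1* and -0.088 for *ATP2*, and neither passed. *ATP14*, subunit h, stayed near wild type in the deletions other than *ume6*, lying between 145.9 and 168 FPKM in *isw2*, *rpd3*, the double deletion and both *rrp6* libraries against 159.5 in wild type.

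**Figure D5:**
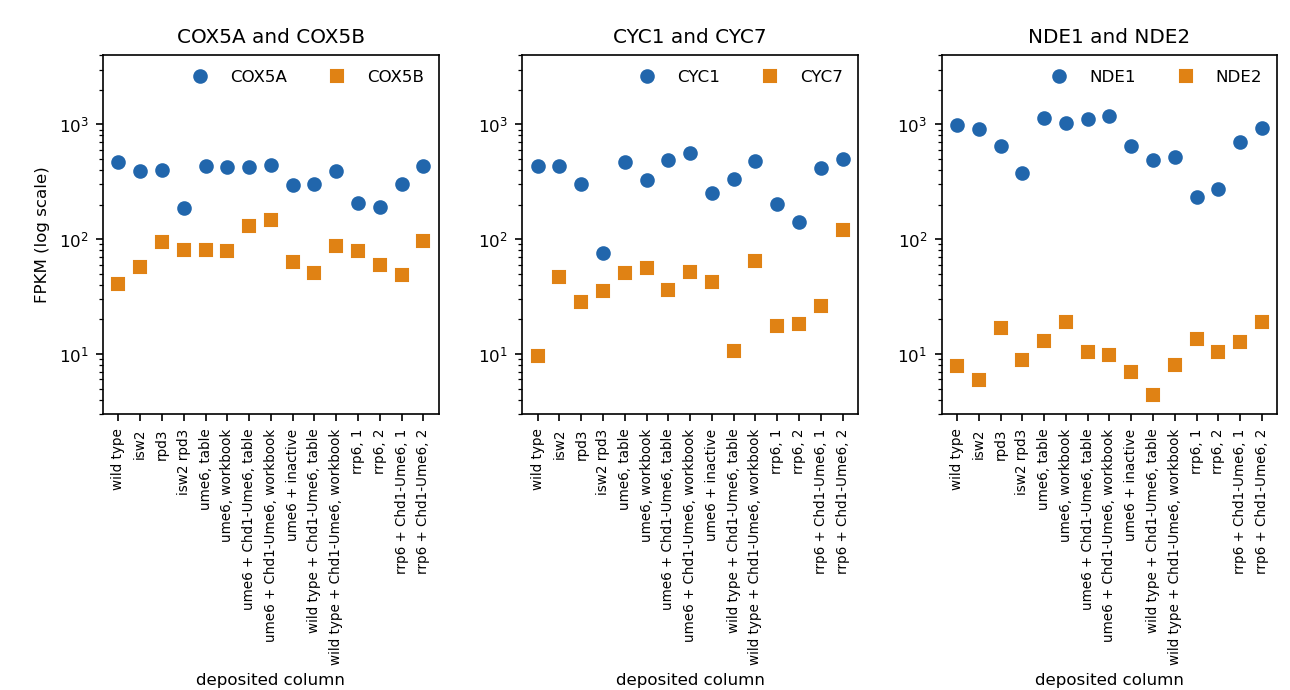
FPKM on a log axis of *COX5A* and *COX5B*, *CYC1* and *CYC7*, and *NDE1* and *NDE2* in each of the 15 columns (points). *CYC7* runs from 9.65 FPKM in wild type to 121 in *rrp6* with Chd1-Ume6, library 2, and *NDE1* is lowest in *rrp6*, at 235 and 271.

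Regulators of the chain were read from a list of 14. *HAP4*, the activating subunit of the Hap complex, was at 82.2 FPKM in wild type, 195.5 and 125 in *ume6*, 190.5 and 173 with Chd1-Ume6 in *ume6*, and 188 with the dead fusion. It was at 49.7 and 48.8 FPKM in *rrp6* and 40.3 and 64.4 in *rrp6* with the fusion. Library 1 with the fusion was thus below both *rrp6* libraries and library 2 above both. *HAP4* was at 64.7 and 98.6 FPKM with the fusion in wild type, 51.9 in *rpd3*, 57.7 in the double deletion and 99.5 in *isw2*. The *HAP4* change was 0.95 ± 0.42 in *ume6* against wild type (adjusted p = 0.261) and 0.050 ± 0.32 for the fusion in *rrp6* (adjusted p = 0.967). *HAP5*, a DNA-binding subunit, rose by 2.30 ± 0.31 in *rrp6* against wild type (adjusted p = 0.0236), from 10.01 to 36.4 and 37.98 FPKM, and was the only 1 of the 14 regulators called in any comparison. *ROX1*, the hypoxic repressor and a gene on chromosome XVI, was at 15.98 FPKM in wild type, 59.6 and 47.9 in *ume6* and 103 and 87.6 with Chd1-Ume6 in *ume6* (1.78 ± 0.38 in *ume6* against wild type, adjusted p = 0.0561).

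Hypoxic genes other than the paralogs gave 1 call. *HEM13*, a heme synthesis gene of the hypoxic list of 13, was at 688 and 382 FPKM in *rrp6* and fell to 78.3 and 115 when Chd1-Ume6 was added (-2.42 ± 0.32, adjusted p = 0.0233). It was at 140.1 FPKM in wild type, below both *rrp6* libraries. Among 46 tested assembly factors of the chain, *ATP10*, needed to assemble the membrane part of ATP synthase, rose by 1.35 ± 0.25 in *ume6* (adjusted p = 0.0318). *NCA3*, linked to expression of mitochondrial ATP synthase genes, fell by 1.87 (SE 0.34, adjusted p = 0.0327). It was at 55.6 FPKM in the single wild type column and between 10.4 and 37.5 in all 14 others, so its fall is not particular to *ume6*. With 1 wild type column, a high value there and lower levels in the other strains cannot be told apart. *FMC1*, a factor for assembly of the catalytic part, was higher with the active than the dead fusion (1.93 ± 0.30, adjusted p = 0.0499). *FMC1* lies on chromosome IX, where 204 of 207 genes were higher in that comparison, with a median of 0.99, and the part of this in the *FMC1* call was not tested. Of the 46 assembly factors, 39 were higher than wild type in *rrp6*, against 3909 of 6241 genes tested. Their median was 0.36, against 0.14 for all genes tested. In the double deletion 36 were higher, against 3385 of 6241, with a median of 0.33 against 0.061. Among 23 other subunits, carriers and electron donors, 0 passed in any tested comparison (limma). In *ume6* against wild type 8 were at an unadjusted p below 0.05, against 1205 of 6241 genes tested. For the fusion in *rrp6* there were 11, against 913 of 6241.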

How the data were processed

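RNA sequencing of yeast was analysed from values that the authors deposited. Per the labels' protocols, total RNA was depleted of ribosomal RNA and made into strand-specific libraries by the dUTP method. The first table holds log2 abundance deposited by the authors with no pseudocount, and the workbook holds log2 FPKM per the file headers. The *ume6* sheet of the workbook, though headed log2, was deposited by the authors as log10 values, judged from its spread, and was converted. Cufflinks 2.2.1, Cuffdiff, TopHat2, CASAVA and SAMtools appear in the submitters' processing notes without their roles. Neither the genome build nor the annotation is given in the sources consulted, nor whether counting used strand, and overlapping genes are therefore uncertain.

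Values were returned to FPKM, which the authors scaled by transcript length and library size, and compared as log2(FPKM + 1), a scale that understates changes of low genes. Genes with a value in all 15 columns and at least 1 FPKM in 2 of them were tested (6241 of 6644, among them all 39). limma 3.58.1 in R 4.3.3 was fitted to 10 groups and a term for the table, with a trend on abundance and 4 residual degrees of freedom. p-values were adjusted by Benjamini-Hochberg over all tested genes, with 0.05 as the threshold, and groups of 1 column borrowed their spread from the rest. Isolates are numbered in the labels without word of separate cultures, and a p-value therefore reflects only the variation among columns, which could be technical. The wild type column looks like a mean made by the authors, since its FPKM in thousandths were whole in 15.9% of 1003 genes and in 93.3% when multiplied by 6, and it was treated as 1 column.

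All 39 genes are described. Named with values were the called genes, the 3 largest rises and falls where fewer than 3 were called, the paralog pairs, the genes with the authors' motif and called genes of the other lists; *QCR2*, *CYC1*, *COX4* and a few others were named for their values after these were seen. The 39 genes and the lists were chosen with earlier results of these data known. In the pairing check, *rrp6* libraries of the same number did not deviate together (correlation -0.34). The fit was tested on simulated data. Other pseudocounts (0.1 and 5), no filter, quantile or median scaling, no table term, a replicate block and leaving out each column were tried. Subtracting chromosome medians and a crossed block were added after seeing the data.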

Additional observations from a re-analysis of the deposited data

How the results depend on the processing

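Calls among the 39 genes rest on few columns. For *ume6* against wild type there was 1 call, 0 with columns centred on their medians or chromosomes centred, 2 with no table term, and 0 to 4 with a column left out, and the median of the 39 then ran from -0.070 to 0.41. For *rrp6* against wild type the 1 call became 0 under quantile normalization, and leaving out columns gave 0 to 1. Its median was -0.44 with no table term, and with a column left out the change of *NDE1* ran from -2.06 to -1.86. For the fusion in *rrp6* the 3 calls became 1 under quantile normalization or median centring and 0 to 3 with a column left out, with a median of 0.47 to 0.96. For the dead fusion against *ume6* the median ran from -0.77 to -0.30 with a column left out. In the untested comparisons, median centring gave 19 genes at least 2-fold apart instead of 11 for the double deletion against wild type and 14 instead of 9 against *rpd3*. The cause was not tested. Median centring moved the median change of all genes by over 0.1 in some comparisons, for example from 0.14 to -0.061 in *rrp6* against wild type and from 0.037 to -0.11 in *ume6* against wild type.

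The replicate numbers did not pair the *rrp6* samples. With a replicate block the calls were 1 in *ume6* against wild type, 0 in *rrp6* against wild type and 1 for the fusion in *rrp6*, and with the crossed replicate block they were 2, 0 and 8.

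Values near 0 changed sign. With no table term *SDH3* in *ume6* was 0.027, *CYC7* with the dead fusion -0.34, *CYC7* in active against dead 0.034 and *ATP15* in *rrp6* -0.028. *ATP15* in *rrp6* was -0.11 with median centring, -0.080 with a replicate block and -0.41 with chromosomes centred, which also gave *COX5B* -0.094 for the fusion in *ume6*. *NDE2* in *rrp6* was -0.15 under quantile normalization and -0.059 under median centring, and *ATP3* in the double deletion against *rpd3* was -0.046 under median centring. With a column left out, *CYC7* ran from -0.99 to 0.37 for the fusion in *ume6* and from -0.27 to 1.09 for the dead fusion, *COX5B* from -0.33 to 0.14 and *COX13* from -0.29 to 0.0084 for the dead fusion, *NDE2* from -0.20 to 0.53 in active against dead and from -0.097 to 0.33 in *rrp6*. The 2-column groups and the single wild type column limit what can be told apart.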
